A study of Mus musculus with 10 samples.

Results

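The 8 windows of the mouse genome (mm9) described here are stretches in which interactions between distant bins came back in library after library. They were chosen by the interaction lists of these same libraries: a stretch was taken because pairs joining its parts at long range were listed in many libraries. They are chromosome 7 from 39 to 46.8 Mb (chr7 distal) and from 7 to 11 Mb (chr7 proximal), chromosome 12 from 18 to 25.5 Mb, chromosome 14 from 3 to 8.5 Mb, chromosome 1 from 85 to 88 Mb, chromosome 8 from 19.5 to 23 Mb (chr8 proximal) and from 72 to 74.6 Mb (chr8 distal), and chromosome 4 from 60 to 61.8 Mb, 35.7 Mb in all. An interaction belongs to the set when both of its 10 kb bins lie in these windows of 1 chromosome, and a TAD (topologically associating domain, a stretch that contacts itself more than its surroundings) when it overlaps a window. Of 17029 interactions listed over all libraries, 1212 qualified, which is 501 of 14670 distinct pairs of bins, or 325 of 13947 interactions when calls with both ends within 1 bin are taken as the same. Of 41342 listed TADs, 177 overlapped a window.

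The 10 libraries are exo-Hi-C, Hi-C with an exonuclease step that removes linear DNA, from the mouse embryonic stem cell line ES-E14TG2a, kept without feeder cells in medium with LIF and inhibitors of GSK3b and MEK. There are 2 libraries for each genotype: E1-KO, E2-KO and E3-KO, which lack 1 enhancer each, E1&E3-dKO, which lacks both E1 and E3, and WT. The labels give neither the positions of the enhancers, nor how many clones a knockout stands for, nor whether replicates are separate cultures, so every p-value measures only the spread between these libraries. The titles of E2-KO replicates 1 and 2, E3-KO replicate 2 and WT replicate 1 carry w326 and those of the other 6 do not.

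Large duplicated segments, in which a long stretch of sequence occurs more than once on a chromosome, are common in the mouse genome and often hold tandem gene families, such as the major urinary proteins on chromosome 4 and the defensins on chromosome 8. In Hi-C, reads from nearly identical copies can be placed on the wrong copy, and contacts between neighbours then look like contacts between the distant copies. A stretch that is ordered differently in the cells and in the reference assembly gives the same appearance. The order of the ends carries information on the arrangement: when both ends of neighbouring interactions move the same way along the chromosome (parallel, a constant difference of positions) the 2 segments run in the same direction, as direct copies do, and when they move opposite ways (antiparallel, a constant sum of positions) they run in opposite directions, as inverted copies or the arms of a fold do. No mm9 sequence or annotation was at hand, so whether the windows hold copies was not tested, and no gene is assigned to them.

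The lists held 466 to 6014 interactions and 2715 to 7962 TADs per library. Neither kind of list gives the number of sequenced reads. A relative depth was therefore recovered as the reads expected of an average pair of bins 1 Mb apart, and it spanned 0.0147 in E2-KO replicate 1 to 0.246 in E1-KO replicate 1. E2-KO replicate 1 and E1&E3-dKO replicate 2 stood apart, the first with the lowest recovered depth and the most TADs and window interactions, the second with 6014 interactions of which 1.41% lay in the windows.

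The number of interactions differed widely between windows. The chr12 window was the richest, with 203 distinct pairs of bins and 10 to 154 interactions per library. The chr14 window held 79 distinct pairs and 9 to 58 per library, chr7 distal 69 and 8 to 30, chr7 proximal 50 and 2 to 35, chr8 distal 32 and 5 to 21, chr1 29 and 4 to 18, and chr4 9 and 1 to 7. The chr8 proximal window had 19 distinct pairs, listed in 5 libraries, of which E2-KO replicate 1 held 16. A further 11 pairs joined both chr8 windows, 52.21 to 52.4 Mb apart, and 9 libraries listed at least 1 of them, E2-KO replicate 1 being the exception. Outside chr8, the median separation ran from 0.74 Mb in the chr4 window to 7.26 Mb in chr7 distal.

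**Figure D1:**
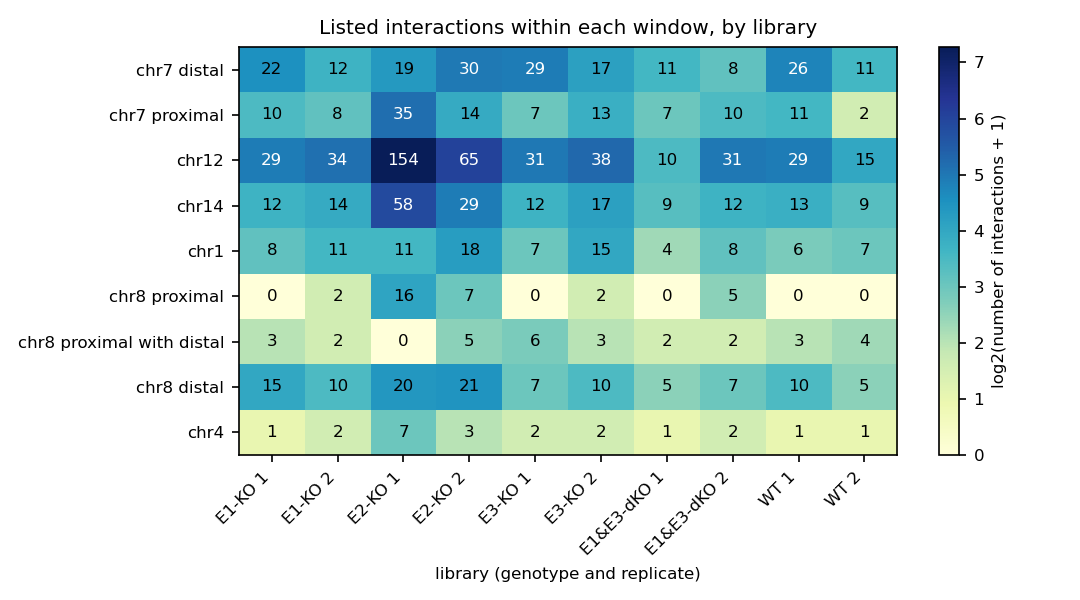
Number of listed interactions within each window (rows) in each library (columns, genotype and replicate), with colour on a log2(number + 1) scale; the row "chr8 proximal with distal" counts pairs joining the 2 chr8 windows. The chr12 row reaches 154 in E2-KO replicate 1, and chr8 proximal is at 0 in 5 libraries.

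Recurrence is what chose the windows and is given as a description, with no test. Of the 325 window interactions, 59 (18.15%) were listed in at least 5 libraries, against 127 of 13622 (0.932%) in the rest and 1.33% over all interactions. With ends at least 1 Mb apart these were 47 of 240 (19.58%) in the windows, 43 of 12178 (0.353%) in the rest and 0.725% over all. In all 10 libraries there were 15 window interactions and 13 others, and with ends at least 1 Mb apart 12 and 3. Below 1 Mb the gap was narrower, with 12 of 85 window interactions (14.12%) and 84 of 1444 others (5.82%) in at least 5 libraries. Of the 325 window interactions, 184 were listed in 1 library only. Leaving out E1&E3-dKO replicate 2 moved the share in the rest to 1.43%, and to 0.626% at 1 Mb and more.

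Interactions that left the windows recurred less often than those inside them, but more often than all interactions of that distance. At 1 Mb and more, 128 interactions had 1 end in a window and the other outside all windows. Of these, 117 occurred in 1 library and 5 in at least 5 libraries. Inside the windows 47 of 240 were in at least 5 libraries, and over all interactions of that distance 0.725%. Interactions leaving the chr1 and chr4 windows outnumbered those inside, 17 against 16 and 6 against 3. The chr8 proximal and distal windows had 13 and 19 that left them and none of that distance inside, where the longest separations were 0.58 and 0.86 Mb. The windows were drawn around pairs that recur inside them, so this too is a description. Of the 5 in at least 5 libraries, 3 crossed the edge of the chr1 window: the pair at 84.985 and 87.475 Mb lay 0.015 Mb outside it and was listed in 9 libraries, while just inside, 85.005 and 87.355 Mb was listed in 2. That edge therefore divides 1 recurrent group. The other 2 lay on chromosome 14, from 6.105 to 20.415 Mb (7 libraries), and on chromosome 8, from 19.575 to 106.235 Mb (6 libraries). At the other edges the outside pair nearest to a window was listed in 1 library in each case. Recurrent distant pairs also exist elsewhere, and the 3 outside the windows that all 10 libraries listed lay on chromosome X (4.245 with 32.105 Mb), chromosome 4 (145.225 with 146.645 Mb) and chromosome 6 (78.165 with 136.285 Mb).

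For a named interaction, the reads of a library are those of its call with the smallest p-value within 1 bin at both ends. The bins can therefore differ between libraries. The interaction with the smallest mean p-value joined 3.035 and 6.025 Mb of chromosome 14 (bins 3030001 to 3040000 and 6020001 to 6030000). It held 24 and 49 reads in the E1-KO libraries, 44 and 46 in those of E2-KO, 28 and 36 for E3-KO, 21 and 16 for E1&E3-dKO, and 21 and 16 in WT. The 6 libraries of the single knockouts lay above both WT libraries, and the double knockout had the same 2 values as WT. These reads were 342 to 5797 times those expected at 2.99 Mb, with a median ratio of 692.

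On chromosome 12, 3 segments near 18.3, 21.6 and 25.1 Mb contacted one another. The pair at 21.555 and 25.185 Mb held 18 and 20 reads in the E1-KO libraries, 28 and 28 in those of E2-KO, 16 and 17 for E3-KO, 11 and 14 for E1&E3-dKO, and 12 and 12 in WT. The pair at 18.325 and 25.095 Mb, 6.77 Mb apart, held 20 and 20 reads in the E1-KO libraries, 25 and 39 in those of E2-KO, 15 and 21 for E3-KO, 13 and 14 for E1&E3-dKO, and 12 and 9 in WT. In both pairs E2-KO had the most reads, and all 3 single knockouts lay above both WT libraries. Between the segments at 18.3 and 21.6 Mb the 9 distinct pairs were spread over all 10 libraries, with at most 5 in any. The observed reads were a median of 1463 times the expected number for the pair at 21.555 and 25.185 Mb and 1747 times for that at 18.325 and 25.095 Mb, the highest median among the named interactions. Such ratios are not particular to the windows. For listed pairs at least 1 Mb apart, the median ratio per library was 182 to 1608 in the windows and 314 to 10619 outside. It was higher outside in every library.

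Another 3 chr12 interactions were listed in all 10 libraries. The pair at 18.375 and 25.065 Mb had 4 to 25 reads (median 10.5), the highest in E2-KO replicate 1 and the lowest in E1&E3-dKO replicate 1. The pair at 20.265 and 24.455 Mb held 7 and 30 reads in the E1-KO libraries, 7 and 26 in those of E2-KO, 11 and 12 for E3-KO, 10 and 8 for E1&E3-dKO, and 16 and 11 in WT. The lowest and the highest value both came from E1-KO, and E2-KO spread nearly as far. The pair at 20.445 and 21.815 Mb had 6 to 25 reads (median 12).

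The chr7 windows differ in how their contacts are laid out. In chr7 distal all distant contacts ran between 2 short stretches, 39.045 to 39.355 Mb and 46.385 to 46.795 Mb, and no bin had distant partners in more than 1 place. Its leading pair, 39.195 and 46.575 Mb, held 20 and 22 reads in the E1-KO libraries, 8 and 22 in those of E2-KO, 17 and 30 for E3-KO, 11 and 12 for E1&E3-dKO, and 12 and 10 in WT. Here E2-KO replicate 1 was the lowest of all libraries and E3-KO replicate 2 the highest. The call of E2-KO replicate 1 lay at 39.195 and 46.575 Mb, and those of the other libraries at 39.205 and 46.585 Mb. The pairs at 39.305 and 46.425 Mb and at 39.245 and 46.485 Mb ranged from 4 to 14 reads (median 7.5) and from 4 to 15 reads (median 7).

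In chr7 proximal the leading pair, 7.435 and 10.585 Mb, held 9 and 8 reads in the E1-KO libraries, 20 and 22 in those of E2-KO, 11 and 9 for E3-KO, 4 and 8 for E1&E3-dKO, and 10 and 5 in WT. E2-KO stood above every other library at this pair. Its neighbour 7.415 and 10.565 Mb had 4 to 15 reads (median 6.5). Both are 3.15 Mb apart, and 6 of 51 bins of this window with a distant partner had partners in 2 places at least 500 kb apart.

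The chr8 distal window held the highest count of any named interaction in a single library, 50 reads in E2-KO replicate 2, at 73.705 and 74.345 Mb, with 26 and 34 reads in the E1-KO libraries, 36 and 50 in those of E2-KO, 33 and 33 for E3-KO, 17 and 20 for E1&E3-dKO, and 21 and 14 in WT. The calls lay at 73.705 and 74.335 Mb or at 73.695 and 74.345 Mb, depending on the library. All single-knockout libraries lay above both WT libraries, and the double knockout overlapped with WT. At 0.64 Mb it is among the shorter contacts, and its reads were a median of 97.0 times those expected. The nearby pair at 73.665 and 74.375 Mb had 6 to 26 reads (median 13). Across the chr8 windows, 19.695 and 72.085 Mb, 52.39 Mb apart, held 11 and 11 reads in the E1-KO libraries, 13 in E2-KO replicate 2, 14 and 8 for E3-KO, 7 in E1&E3-dKO replicate 1, and 13 and 6 in WT, and was not listed in E2-KO replicate 1 or E1&E3-dKO replicate 2. Its reads were a median of 1327 times the expected number. Within chr8 proximal the most recurrent pair, 22.235 and 22.465 Mb, was in 5 libraries, with 7 reads in E1-KO replicate 2, 9 and 12 in both of E2-KO, 9 in E3-KO replicate 2 and 7 in E1&E3-dKO replicate 2, and in neither WT list.

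The remaining 2 windows each had 1 interaction in all 10 libraries. On chromosome 4, 60.495 and 61.235 Mb held 13 and 16 reads in the E1-KO libraries, 22 and 31 in those of E2-KO, 15 and 16 for E3-KO, 9 and 10 for E1&E3-dKO, and 12 and 11 in WT. The 6 libraries of the single knockouts lay above WT here and both E1&E3-dKO libraries below it. On chromosome 1, 85.185 and 87.535 Mb had 5 to 16 reads (median 10), with the highest in E2-KO replicate 1 and the lowest in WT replicate 2.

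**Figure D2:**
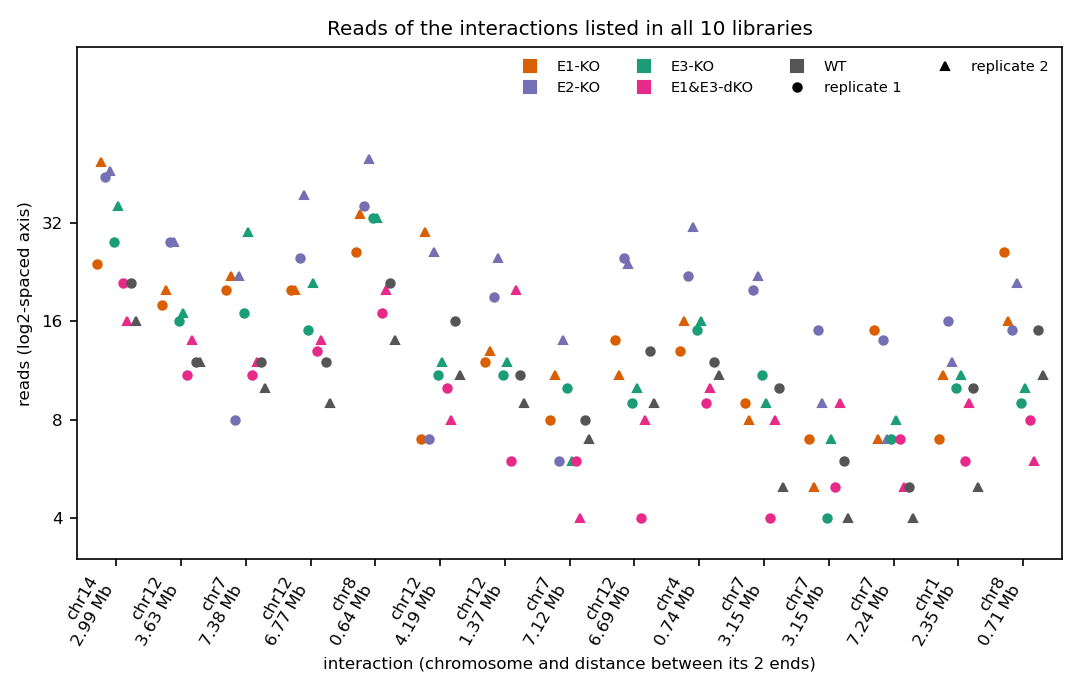
Reads (log2-spaced axis) of the 15 window interactions listed in all 10 libraries, ordered by mean p-value and named by chromosome and distance between ends; each point is a library, colours are genotypes from E1-KO on the left to WT on the right, circles replicate 1 and triangles replicate 2. Each value is the library's call with the smallest p-value within 1 bin at both ends. E2-KO replicate 2 is highest for 7 interactions, and WT replicate 2 is lowest for 6.

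Over these 15 interactions E2-KO replicate 2 had the most reads at 7, ties included. E2-KO replicate 1 had the most at 4 and the fewest at 2, while WT replicate 2 had the fewest at 6 and E1&E3-dKO replicate 1 at 5. Both E2-KO libraries lay above both WT libraries at 11 of 15, against 67.9% of all 28 interactions of all 10 libraries. For E1-KO it was 9 of 15 against 50% of all, for E3-KO 7 of 15 against 39.3%, and for E1&E3-dKO 1 of 15 against 3.57%, all compared with the same 2 WT libraries. Both E1&E3-dKO libraries lay below both WT libraries at 5 of 15, against 32.1% of all, both E3-KO libraries at 1 of 15 against 3.57%, and neither E1-KO (3.57% of all) nor E2-KO (0% of all) at any. The shares in the windows were near those of all 28 interactions. These include the 15 themselves, so part of the nearness is built in and nothing is concluded from it.

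No relation of these reads to the recovered depth passed the test. Relative to the mean of each interaction over the libraries, reads of the 28 window interactions in at least 8 libraries were 1.05 and 1.04 times in the E1-KO libraries, 1.32 and 1.65 times in those of E2-KO, 1.12 in E3-KO replicate 2 and 0.918 in replicate 1, 0.684 and 0.754 in E1&E3-dKO, and 1.02 and 0.668 in WT. E2-KO replicate 1, at 0.0147 expected reads at 1 Mb, had more reads at these interactions than E1&E3-dKO replicate 1 at 0.11. Across the 10 libraries Pearson's r on the log2 scale was -0.41 (permutation p = 0.242, two-sided) and Spearman's rho -0.37 (permutation p = 0.296), with an adjusted p of 0.451 over the 11 planned tests. Without the 2 libraries farthest from the median depth, E2-KO replicate 1 and E1-KO replicate 1, r was -0.33. The WT replicate 2 list gives every pair in both orientations; its counts are odd for 259 of 466 pairs and so were not doubled, but its recovered depth of 0.207 may be too high if both orientations entered the expected number, and without it r was -0.32. Among the 6 libraries without w326 in the title r was 0.29. The 4 w326 libraries are too few for a correlation of their own. Their reads were 1.02 to 1.65 times the mean, against 0.668 to 1.05 times in the other 6.

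**Figure D3:**
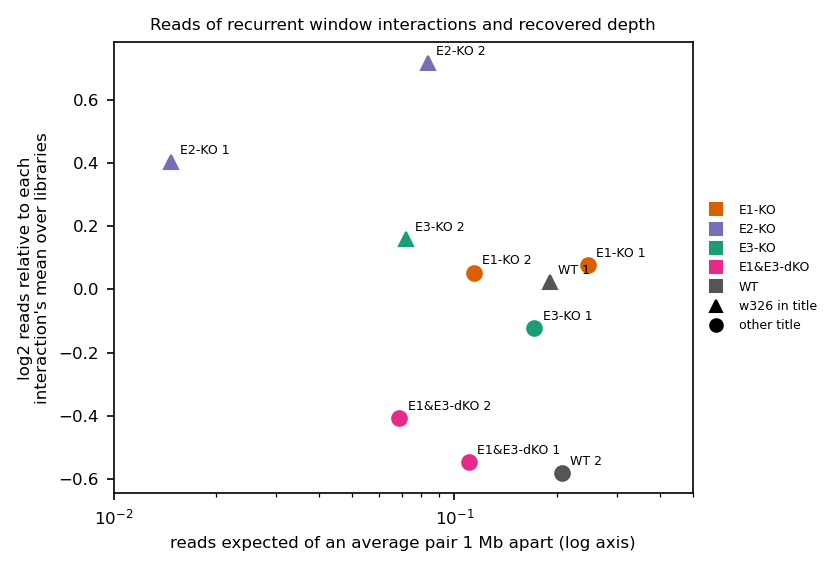
Mean log2 reads of 28 recurrent window interactions relative to each interaction's mean over libraries (vertical) against the reads expected of an average pair 1 Mb apart (horizontal, log axis), 1 point per library; triangles mark titles with w326. The library with the lowest depth, E2-KO replicate 1 at 0.0147, has the second highest relative reads.

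Listed distant window pairs often had more reads than expected at the shortest listed separation. In some libraries the other listed distant pairs did so nearly as often. After division by the bias factors, 62.8% (E1-KO replicate 1) to 100% (3 libraries) of window interactions at least 1 Mb apart exceeded the reads expected of an average pair at the shortest separation in that library's list, which was 20 kb except for 90 kb in WT replicate 2. Among other listed interactions of that distance the share was 16.3% (WT replicate 1) to 100%. The gap was wide in WT replicate 1, at 64.7% against 16.3%, and nearly absent in WT replicate 2, at 95.8% against 95.6%. The level to exceed differed between libraries. It was 5.51 reads in E1-KO replicate 1 but 0.577 in E2-KO replicate 1, where all pairs of both kinds exceeded it. A distant pair needs reads well above its own expected number to be listed at all, so these shares describe listed pairs only. The median count of distant window interactions was 5 to 7 reads per library, against 2 to 4 for the others of that distance.

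The bias factors, by which the expected reads of a bin are scaled relative to an average bin, were more spread at the ends of window interactions. Their median was 0.858 to 1.01 in the 10 libraries, against 0.962 to 1.1 for the other listed bins. Factors over 1.5 made up 8.93 to 17.0% of window bins and 2.66 to 7.43% of the others, and factors under 0.75 made up 23.9 to 37.1% against 9.42 to 22.4%. In every library both tails were heavier in the windows. By window the median factor was 1.28 in chr7 distal, 0.795 in chr7 proximal, 0.881 in chr12, 0.851 in chr14, 1.19 in chr1, 0.795 in chr8 proximal, 1.08 in chr8 distal and 1.32 in chr4, and for the pairs joining the chr8 windows it was 1.56. The deposited lists hold no factor under 0.5 or over 2, so bins beyond these limits could not enter.

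The order of the ends was read in blocks. Distinct window pairs at least 1 Mb apart (375) were linked when both ends lay within 200 kb, which gave 66 blocks, 17 of them with at least 6 pairs and 262 pairs together. In each block Kendall's tau between the left and right positions describes the order, 1 for strictly parallel and -1 for strictly antiparallel, and a block was called at 0.5 or beyond. By this measure 6 blocks were antiparallel, 3 parallel and 8 mixed. Pairs of a block share bins and libraries, and no test was made.

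The steadiest antiparallel block joined the chr12 segments at 18.31 and 25.11 Mb (mean positions of its ends). Its 14 pairs had a tau of -0.81, and tau was negative in all 8 libraries with at least 4 of its pairs, from -1 to -0.81. The sum of positions had an SD of 23.1 kb and their difference 77.3 kb. Its outermost pairs were 18.245 with 25.135 Mb, in 1 library, and 18.385 with 25.055 Mb, in 9, so the right end moved down as the left moved up. Without E2-KO replicate 1, tau was -0.82.

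The block at 20.26 and 24.45 Mb of chromosome 12 was compact, with 7 pairs within 30 and 20 kb. Its tau was -0.65, and it was negative in all 7 libraries that could be scored. All 7 pairs lay on 1 line of constant sum, 44.72 Mb, to within 1 bin, and 5 of them were in at least 5 libraries.

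The block at 20.41 and 21.85 Mb drew the clearest line, with 20 of 22 pairs at a sum of 42.26 Mb over 130 kb and a tau of -0.78. All 22 pairs were in E2-KO replicate 1, and 13 in no other library. The 9 pairs seen elsewhere had a tau of -0.94. Another 2 antiparallel blocks were weaker, chr14 at 4.34 and 7.76 Mb (tau -0.66, negative in 3 of 4 libraries) and chr7 proximal at 7.39 and 9.72 Mb (tau -0.52, and -0.27 without E2-KO replicate 1). The last, chr12 at 23.03 and 24.86 Mb (tau -0.54), rested on 9 pairs of E2-KO replicate 1 alone.

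Parallel order was seen between the chr12 segments at 21.55 and 25.18 Mb, where 7 pairs had a tau of 0.72 and 5 of them lay at a difference of 3.63 Mb. This block spanned only 30 and 60 kb, and 3 of its pairs were in at least 5 libraries. It could be scored in 2 libraries, E2-KO replicate 1 (tau 0.825) and WT replicate 2 (tau 0.516). The SD of the difference was 13.5 kb and that of the sum 32.7 kb, and the outermost pairs were 21.535 with 25.145 Mb and 21.565 with 25.195 Mb, each in 1 library. The blocks at 19.26 and 20.45 Mb (tau 0.55) and at 18.31 and 21.69 Mb (tau 0.51) were called parallel on 8 and 9 pairs, and the order of neither is settled. The first could be scored in 1 library, E2-KO replicate 1, and missed the call at 0.49 without E1-KO replicate 2, at 0.21 when pairs were weighted by the number of libraries and at 0.03 with links of up to 500 kb. The second turned to -0.16 with links of up to 100 kb and to -0.07 when weighted. Without E2-KO replicate 1 its 7 remaining pairs had a tau of 0.22, and -0.16 once blocks were linked anew. In these blocks the segment near 25.1 Mb ran opposite to that near 18.3 Mb. Further on, at 25.18 Mb, it was called parallel to that near 21.55 Mb, on 7 pairs scored in 2 libraries.

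Blocks called mixed by tau can hold lines. In chr7 proximal the block at 7.43 and 10.60 Mb had a tau of 0.46, positive in all 9 libraries scored, and 12 of its 20 pairs lay at a difference of 3.14 Mb over 80 kb, 6 of them in at least 5 libraries. On chromosome 12 the block at 18.73 and 22.89 Mb had a tau of 0.35 because of 2 stray pairs at another place. There 10 of 13 pairs lay at a difference of 4.1 Mb, and tau was 0.93 with links of up to 100 kb. In chr7 distal the block at 39.27 and 46.53 Mb, the largest with 68 pairs, had a tau of -0.04, positive in 4 and negative in 6 libraries. It held several lines at once: 17 pairs at a difference of 7.27 Mb, 11 at 7.12 Mb with 6 of them in at least 5 libraries, and 8 at 7.38 Mb with 5 in at least 5 libraries, beside 12 and 11 pairs at sums of 85.72 and 85.78 Mb. Lines cross in so dense a block and share pairs. The chr1 block at 85.13 and 87.44 Mb likewise held 8 pairs at a difference of 2.23 Mb, 7 at 2.35 Mb and 7 at a sum of 172.47 Mb (tau 0.06). The remaining mixed blocks were chr14 at 3.05 and 6.05 Mb (tau 0.22) and at 4.35 and 6.14 Mb (0.06), chr7 proximal at 7.46 and 9.07 Mb (-0.15), and the pairs joining the chr8 windows (-0.10). In the block at 7.46 and 9.07 Mb 6 of 8 pairs lay at a sum of 16.6 Mb and tau was -0.85 with links of up to 100 kb, but 7 of the 8 were listed in E2-KO replicate 1 alone.

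**Figure D4:**
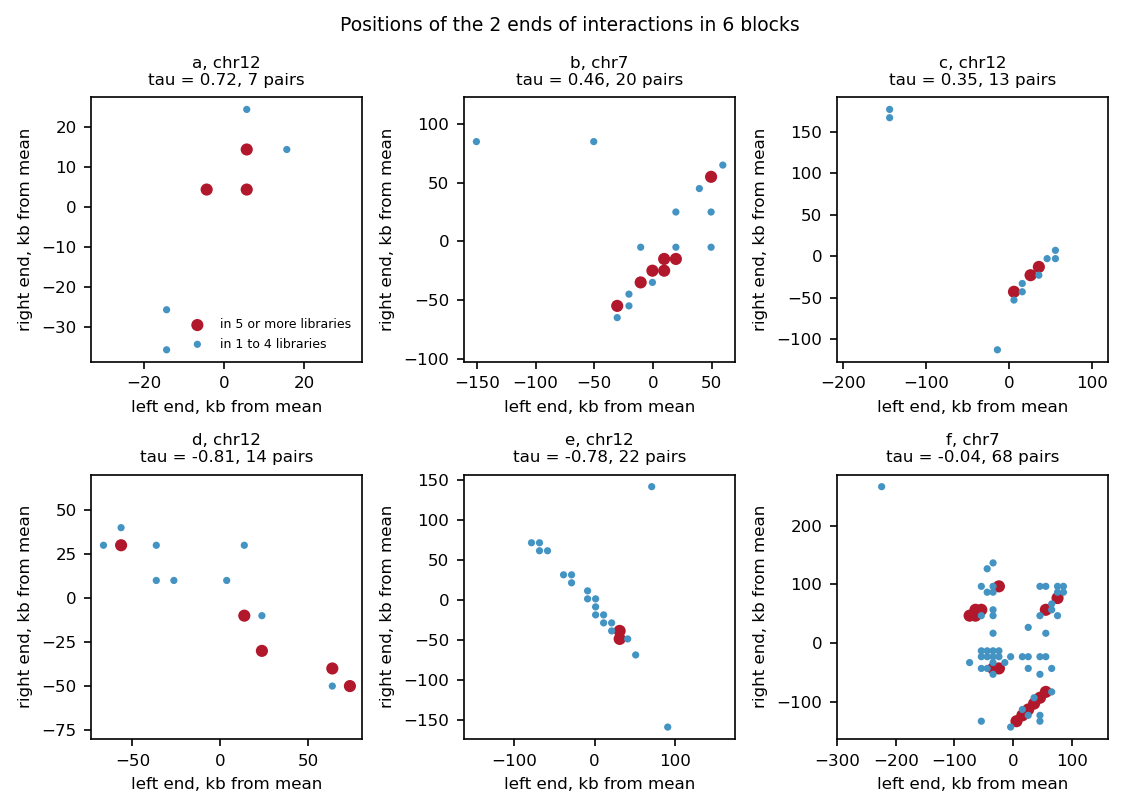
Position of the right end against the left end, in kb from the mean of the block, for the pairs of 6 blocks; large red points are pairs listed in 5 or more libraries, small blue points those in 1 to 4. Panel a is the chr12 block at 21.55 and 25.18 Mb, panel b the chr7 proximal block at 7.43 and 10.60 Mb, panels c, d and e are the chr12 blocks at 18.73 and 22.89 Mb, at 18.31 and 25.11 Mb and at 20.41 and 21.85 Mb, and panel f is the chr7 distal block at 39.27 and 46.53 Mb; a rising line is parallel, a falling line antiparallel, and panel f holds several lines.

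At separations of 0.5 Mb and more, 4 further blocks appeared. The chr8 distal block at 73.68 and 74.35 Mb had 19 pairs and a tau of -0.82, with 15 pairs at a sum of 148.04 Mb, and it was antiparallel in all 10 libraries (tau -0.95 to -0.82). The chr12 block at 22.11 and 22.80 Mb had a tau of -0.85 over 13 pairs from 7 libraries. The other 2, chr12 at 19.55 and 20.12 Mb (0.97) and chr7 proximal at 9.03 and 9.69 Mb (0.89), were parallel and occurred in E2-KO replicate 1 alone. Direct neighbours were also counted, without blocks and in 1 direction only, so that 2 adjoining pairs count once. Of 375 distinct window pairs at least 1 Mb apart, 55 (14.67%) were followed by a listed pair 1 bin on along the parallel diagonal. Along the antiparallel one it was 46 (12.27%). In the rest these were 27 and 34 of 12287 pairs (0.220% and 0.277%). Pairs with a neighbour on either side are more numerous than these counts. Parallel neighbours thus outnumbered antiparallel ones, whereas antiparallel blocks outnumbered parallel ones. Within single libraries such parallel neighbours in the windows were the more numerous in every library but E2-KO replicate 1, which had 20 parallel and 24 antiparallel.

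Some bins had several distant partners. Of 393 bins with a partner at least 1 Mb away, 86 had partners in 2 or more places at least 500 kb apart and 21 in 3 or more, all 21 on chromosomes 12 and 14. On chromosome 12 the bin at 18.385 Mb was paired with 19.385, 20.315, 21.945 and 25.055 Mb, and the bin at 20.465 Mb with 18.345, 19.005, 21.785 and 24.855 Mb. In chr1, chr4, chr7 distal and both chr8 windows every bin had its partners in 1 place.

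The windows were poor in TADs, and the median score of those present was above that of other TADs. TADs covered 9.36 to 15.0% of the windows in the knockout libraries and 9.16 and 11.2% in WT, against 39.4 to 46.1% of the rest of the same 6 chromosomes over all libraries. In chr7 distal at most 1.03% of the window was covered in any library, while chr8 distal had 35 to 90.8% and 4 to 9 TADs. The median score of TADs overlapping the windows was 1.94 and 2.16 in the E1-KO libraries, 2.99 and 2.28 in those of E2-KO, 1.98 and 2.23 for E3-KO, 1.97 and 2.33 for E1&E3-dKO, and 2.09 and 2.00 in WT, against 1.67 to 2.05 for other TADs. The difference averaged 0.469 ± 0.216 (SD, n = 10 libraries) and was positive in 10 of 10 (exact sign-flip permutation p = 0.00195, the smallest it can give, adjusted p = 0.0215). By window, the median was above that of other TADs in all 10 libraries for chr12, chr14 and chr8 proximal, but in 7 of 10 for chr8 distal, which held 62 of the TADs. TAD scores did not choose the windows, but they come from the same reads as the contacts that did. All 10 libraries were compared at the same windows, so the p-value measures only how the difference repeats between these libraries. It cannot tell whether the choice of the windows set the difference. Their median length did not pass the same test: 120 to 290 kb against 90 to 260 kb, a mean log2 ratio of 0.22 ± 0.49 (SD, n = 10), longer in 7 of 10 libraries (exact sign-flip permutation p = 0.197, adjusted p = 0.451). With scores of at least 2 the ratio was 0.45 and passed (exact sign-flip permutation p = 0.00195).

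The TAD from 19.97 to 20.34 Mb of chromosome 12, 370 kb long, was found in all 10 libraries. Its score was 2.20 and 3.62 in the E1-KO libraries, 16.5 and 4.52 in those of E2-KO, 2.97 and 4.55 for E3-KO, 2.86 and 3.63 for E1&E3-dKO, and 2.81 and 2.92 in WT. E2-KO replicate 1 had a far higher score than any other library, and both E2-KO and both E3-KO libraries lay above both WT libraries. Outside the windows, too, E2-KO replicate 1 had the highest median TAD score, 2.05, and WT replicate 1 the lowest, 1.67. The TAD from 73.7 to 74.34 Mb in chr8 distal, 640 kb long and found in 9 libraries, had 9.77 and 3.15 in E2-KO and 1.98 and 1.97 in WT. Its borders are the ends of the contact at 73.705 and 74.345 Mb. In chr14 the TAD from 7.82 to 8.14 Mb occurred in 8 libraries, with 7.88 and 5.29 in E2-KO and 2.41 and 2.34 in WT. In chr8 proximal that from 19.4 to 19.69 Mb occurred in 8 libraries, scored 2.23 to 2.59 and ended at the left end of the contact 52.39 Mb long. In the other 4 windows the most frequent TAD was in 2 to 6 libraries.

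Distant contacts of the windows seldom had both ends within TADs. At 1 Mb and more this held for 0 to 2.74% of window interactions per library, against 15.9 to 21.3% of the others. TADs also covered less of the windows, 9.16 to 15.0%, than of the rest of the same chromosomes, 39.4 to 46.1%. The shares were not adjusted for cover, so they describe no trait of the contacts apart from it. At TAD corners, 1 to 6 window TADs per library, 5.0 to 26.7%, had a listed interaction with both ends within 15 kb of its 2 borders, against 0.0566 to 6.52% of other TADs. In all 10 libraries 1 of these was a chr8 distal TAD, 600 to 720 kb long in 9 of them and 450 kb in E3-KO replicate 1, and in 5 libraries it was the only one. The windows were chosen for listed interactions, so nothing is read from the difference in these shares.

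**Figure D5:**
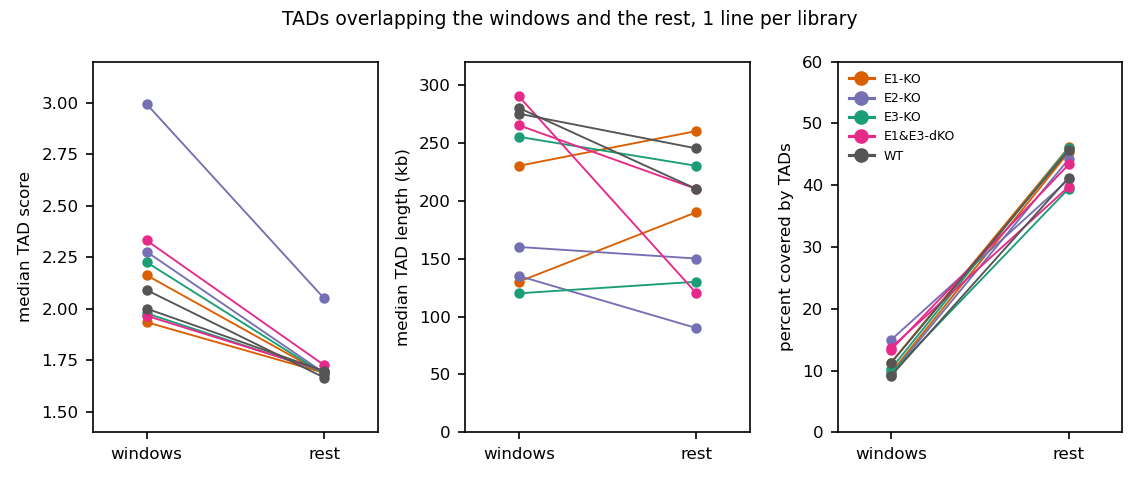
Median TAD score, median TAD length in kb and percent of sequence covered by TADs, for the windows (left) and the rest (right; for cover, the rest of the 6 chromosomes with windows), 1 line per library coloured by genotype. Scores are higher and cover is lower in the windows in all 10 libraries, and lengths cross.

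Genotypes were compared over libraries. E1-KO averaged 97.5 ± 3.54 window interactions, E2-KO 256 ± 90.5, E3-KO 109 ± 11.3, E1&E3-dKO 67 ± 25.5 and WT 76.5 ± 31.8 (SD, n = 2 each), and both E2-KO libraries, at 320 and 192, lay above all others. The squared log2 difference between libraries of a genotype was 0.318 times the average over all pairings of the libraries (exact permutation p = 0.0233, one-sided), which did not hold after adjustment over the 11 tests (adjusted p = 0.128). Without E2-KO replicate 1 the unadjusted p was 0.134. Both E2-KO libraries carry w326 in the title, so for E2-KO against the genotypes without it, E1-KO and E1&E3-dKO, genotype and w326 cannot be told apart. Among the w326 libraries the numbers were 320 and 192 in E2-KO, 117 in E3-KO replicate 2 and 99 in WT replicate 1, and the other 6 libraries held 49 to 101. Knockout libraries held more than WT libraries by a log2 difference of 0.64 (exact permutation p = 0.378, adjusted p = 0.473). The average of each single knockout was above that of WT, but E1-KO replicate 2, at 95, lay below WT replicate 1. The double knockout had 49 and 85 against 99 and 54 in WT.

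As a share of each library's list, window interactions were 9.38 and 18.3% in the E1-KO libraries, 9.15 and 18.3% in those of E2-KO, 12.2 and 7.98% for E3-KO, 5.76 and 1.41% for E1&E3-dKO, and 7.78 and 11.6% in WT. Libraries of 1 genotype differed about as much as genotypes did (exact permutation p = 0.287 by genotype, p = 0.822 for knockouts against WT). The median reads of window interactions were 7.5 and 7 in the E1-KO libraries, 6 and 8 in those of E2-KO, 6 and 7 for E3-KO, 6 and 5 for E1&E3-dKO, and 7 and 6.5 in WT (exact permutation p = 0.387 and p = 0.733). TADs overlapping the windows numbered 15 and 18 in the E1-KO libraries, 28 and 17 in those of E2-KO, 16 and 17 for E3-KO, 20 and 17 for E1&E3-dKO, and 14 and 15 in WT (exact permutation p = 0.267 and p = 0.178). None of these 6 tests passed the threshold of 0.05, and their adjusted p-values were 0.451 to 0.822.

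Few individual contacts separated E1-KO, E3-KO or E1&E3-dKO from WT, and E2-KO gained more. An interaction was counted as gained when both libraries of a knockout and neither WT library listed it, and as lost in the reverse case. E1-KO gained 5 of 113 window interactions and lost 6, against 1.21% and 0.273% of all interactions. E2-KO gained 42 of 296 and lost 5, against 5.25% and 0.139% of all. E3-KO gained 6 of 121 and lost 1, against 0.704% and 0.0587%, and E1&E3-dKO gained 3 of 104 and lost 7, against 0.197% and 0.135%. The windows were chosen for recurrence, and an interaction must recur in 2 libraries to be counted here, so the choice itself raises the shares in the windows.

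The 3 gains of E2-KO with the smallest mean p-value were listed in no other genotype: on chromosome 8, 22.365 with 22.805 Mb (31 and 29 reads), and on chromosome 12, 19.955 with 20.925 Mb (15 and 17 reads) and 20.375 with 21.885 Mb (12 and 15 reads). The third lies on the antiparallel line at a sum of 42.26 Mb, on which all 10 libraries listed 20.445 with 21.815 Mb. The pair at 18.335 and 25.075 Mb of chromosome 12, gained in E1-KO with 5 and 14 reads and in E3-KO with 4 and 9 reads, was in 6 libraries and lies within 20 kb of the pair at 18.325 and 25.095 Mb of all 10 libraries. Among the losses, 19.855 with 72.075 Mb of chromosome 8 was listed in WT with 6 and 7 reads, in neither E1-KO nor E2-KO list, and in 3 other libraries. In E1&E3-dKO the leading loss was 4.185 with 8.095 Mb of chromosome 14 (9 and 7 reads in WT), which 4 libraries of the single knockouts listed. With 2 libraries against 2 no exact test can reach the threshold, and these contacts are given as values.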

How the data were processed

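Exo-Hi-C interactions and TADs of 10 libraries were taken as the authors deposited them, on mm9. HiC-Pro 2.10.0 and HOMER are named per the submitters' processing notes, and which tool made which list is not given in the sources used here. The deposited interaction lists give, per pair of 10 kb bins, an unscaled count of reads with its p-value, raw and adjusted (never above 0.01), and 1 bias factor per bin, a ratio to an average bin. The deposited TAD lists give borders and a score of at least 1.5. Replicates were not pooled. Pairs in the WT replicate 2 list appear in both orientations (932 lines, 466 pairs) and were used once.

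The Poisson mean that returns each p-value at its count was solved for; divided by both bias factors it gives the reads expected at that distance. Library totals were not used here, so depth is only relative, and no counting interval was made. The solving, the block order and the permutation tests were tested on simulated data. Genotypes were compared over 945 pairings of the libraries (exact, one-sided), knockouts with WT over 45 choices (two-sided; smallest p 0.0222), and TADs by 1024 sign flips (two-sided); correlations used 100000 permutations. The 11 tests were adjusted by Benjamini-Hochberg. Python 3.11.15, numpy 2.4.6, scipy 1.17.1, pandas 2.3.3 and matplotlib 3.10.9 were used.

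The windows, lists and tests were chosen with earlier results of these data known. Named by rule were, per window or pair of windows, the interaction in most libraries (ties by mean p), every interaction of all 10 libraries, the outermost interactions of blocks and the TAD in most libraries (80% reciprocal overlap); lost and gained examples and pairs at window edges were chosen after their values were seen. Alternatives were a stricter adjusted p, longer separations, merged neighbours, more reads, other TAD rules, other links and leaving out each library. Replicate numbers 1 and 2 recur in every genotype, but nothing says that they mark a shared batch. Sequence and genes of the windows were not used here.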

Additional observations from a re-analysis of the deposited data

How the results depend on the processing

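Of 232 values of the compared results under alternatives, 205 kept their direction and their side of the threshold, or for counts stayed within 1.5 times; for single blocks it was 208 of 238. The genotype ratio for the number of interactions lost its unadjusted call with neighbours merged (0.354, exact permutation p = 0.0561) and without either E1-KO library, E2-KO replicate 1, either E3-KO library or E1&E3-dKO replicate 1 (0.218 to 0.531 over all 10 omissions). That for TADs ran from 0.197 (without E2-KO replicate 2, exact permutation p = 0.0265) to 1.06, for the percent from 0.535 to 1.21 and for reads from 0.423 to 1.34. Knockouts minus WT in percent points was 0.632, and -4.69 at an adjusted p of at most 0.001, -9.28 with at least 5 reads, -2.17 among titles without w326, and -1.27 to 2.54 when each library was left out, below 0 without E1-KO replicate 2 (-0.514), E2-KO replicate 2 (-0.507) or WT replicate 1. In median reads (log2) it was -0.05, and 0.0898, 0.0505, 0.139 and 0.135 with the stricter p, 1 Mb, merging and at least 5 reads, against -0.11 to -0.00011 with each library left out. For the number of interactions omissions gave 0.20 to 1.08 and for TADs 0.24 to 0.38. The TAD length ratio passed with scores of at least 2 (0.45, exact permutation p = 0.00195) and was 0.10 to 0.30 with omissions; the score difference was 0.416 to 0.494. The depth correlation was -0.50 to -0.21 with omissions and 0.29 without w326 titles. With replicate number as a block, which the labels do not show to pair libraries, knockouts minus WT gave exact permutation p = 0.32, 0.88, 0.76 and 0.2 for interactions (0.64), percent (0.632), reads (-0.05) and TADs (0.33), and no call changed. Parallel blocks numbered 3, but 1 with links of up to 500 kb or without E2-KO replicate 1 and 5 at 0.5 Mb (1 to 3 with omissions). Antiparallel blocks numbered 6, but 2 with links of 500 kb and 3 for pairs of at least 2 libraries (4 to 6 with omissions). The block at 18.31 and 21.69 Mb of chromosome 12 had a tau of 0.508, which turned to -0.16 with links of 100 kb or when linked anew without E2-KO replicate 1 and to -0.0669 when weighted; that at 7.39 and 9.72 Mb of chromosome 7 turned to 0.0464 with links of 500 kb. Shares listed in at least 5 libraries were 15.5 to 26.6% in the windows and 0.693 to 1.43% outside (16.0 to 26.7% and 0.278 to 0.626% at 1 Mb) with omissions, an alternative chosen after seeing the data, as was the subset without w326 for depth. Where a cause is not named, the cause was not tested. The total depth of each library is unknown, and how depth bears on the number of listed pairs was not tested.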
